A study of Mus musculus with 62 samples.

Results

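The comparison described here is that of 7% against 36% of calories from protein in the livers of mice after sleeve gastrectomy (SG), an operation that here removed about 75% of the stomach. It rests on 11 RNA-seq libraries of the 57 with a column of counts, chosen by their labels: 7 of SG mice on the 7% diet (SG P7) and 4 of SG mice on the 36% diet (SG P36). The animals were males of the inbred C57BL/6J strain. They entered at 5 weeks of age, ate a Western diet for 12 weeks (42% of calories from fat, 15.2% from protein) and had surgery at 17 weeks. From day 7 after surgery they ate diets with 20% of calories from fat, in which carbohydrate replaced the missing protein, and livers were collected at week 14 from mice that had fasted for 16 h and then been refed for 4 h. Set beside them were 6 libraries of SG mice on 21% protein (SG P21), 7 of sham-operated mice on 7% protein (Sham P7) and 5 of sham-operated mice on 36% protein (Sham P36), with the same earlier diet. The design asks how the share of protein in the diet after surgery changes the liver. Because carbohydrate replaced protein, less protein and more carbohydrate cannot be told apart here. Mice were housed in pairs, and no label used here names the cage mates.

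The liver takes up dietary amino acids first. It breaks down the surplus, turns the nitrogen into urea and the carbon into glucose or fat, and slows these pathways when protein is short. Shortage of an amino acid leaves transfer RNAs uncharged, which activates the kinase GCN2, and GCN2 in turn raises translation of the transcription factor ATF4. ATF4 induces genes for making and importing amino acids, the pseudokinase gene Trib3 and the hormone gene Fgf21, which acts on fat tissue and brain.

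Libraries held 23.01 to 33.36 M counts in SG P7 and 22.12 to 27.28 M in SG P36. One library of each group stood apart. The SG P7 library 0124L had a mean correlation of 0.965 with the rest of its group over log2 CPM, counts scaled to a common library size, against 0.971 to 0.980 for the other 6, and the SG P36 library 0085L had 0.957 with its group, against 0.967 to 0.971 for the other 3. For 0124L, which had no Vmn2r3 counts and the lowest levels of several amino acid response genes in its group, whether its label or diet is right was not tested, and this touches every SG P7 mean, lowest value and overlap below. Both libraries stayed in the fit, and values without them are given where a call or count changes. Summed hepatocyte markers were 111008 to 124706 CPM in SG P7 and 104059 to 136966 CPM in SG P36. The mitochondrially encoded share of counts was 8.73% ± 1.65 (SD, n = 7) in SG P7 and 8.21% ± 1.63 (SD, n = 4) in SG P36 (two-sided exact permutation p = 0.63, adjusted 0.703). In bulk liver, fewer cells of a type and less RNA per cell cannot be told apart.

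Of 16087 genes tested, 3026 (18.8%) were called in SG P7 against SG P36 at an adjusted p below 0.05 (edgeR's quasi-likelihood test with Benjamini-Hochberg adjustment, used for every adjusted p of a gene here). Of these, 1635 (10.2%) were higher and 1391 (8.65%) were lower on 7% protein. Without SG P36 library 0089L, 1070 were higher. Without 0124L and 0085L, 3064 genes (18.7% of 16366) were called, 1623 (9.92%) higher and 1441 (8.80%) lower, and 2360 of the 3026 kept their call and direction. The 2 groups of libraries did not overlap at all for 826 genes (5.13%) that were higher and 515 genes (3.2%) that were lower in SG P7. The median log2 fold change of all genes was -0.013.

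Genes of the response to scarce amino acids were higher on the 7% diet. Of 18 ATF4 regulators and effectors, 9 rose and none fell, with a median log2 fold change of 0.84. Trib3, which restrains AKT and ATF4 itself, had 4.17 CPM in its lowest, 54.4 CPM in its median and 119 CPM in its highest SG P7 library, against 4.12, 1.35, 1.11 and 1.22 CPM in SG P36. The log2 difference was 4.88 ± 0.51 (SE, adjusted p = 6.18e-10). Every SG P7 library lay above every SG P36 library, but only just, as 0124L was the lowest of SG P7 and 0085L the highest of SG P36. Fgf21 had 0.688, 42.3 and 84.8 CPM in the lowest, median and highest SG P7 library, and 0.395, 0.538, 0.133 and 0.126 CPM in SG P36. Its log2 difference was 7.08 ± 0.99 (adjusted p = 6.07e-07), again with 0124L lowest and no overlap. Atf5, a transcription factor close to ATF4, averaged 721 ± 268 CPM in SG P7 and 79.7 ± 34.3 CPM in SG P36 (log2 difference 3.18 ± 0.30, adjusted p = 4.38e-11).

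Nupr1, a small nuclear stress protein, rose by 3.56 ± 0.49 (log2, adjusted p = 4.81e-07), and the glycogen-binding Stbd1 by 1.41 ± 0.17 (adjusted p = 2.51e-08). Library 0124L was the lowest SG P7 library for all 9 called members of this list, and for 799 of the 1635 genes called higher. Without 0124L and 0085L, 13 of the 18 members rose, with a median of 1.60, and Trib3 differed by 5.74 (adjusted p = 1.96e-13). Gdf15, the other stress hormone of liver, had 3.47 ± 1.22 CPM in SG P7 and 2.19 ± 2.13 CPM in SG P36 and did not pass (log2 difference 0.67 ± 0.59, adjusted p = 0.465). The plot of 8 genes by library shows both of these libraries among the others.

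**Figure D1:**
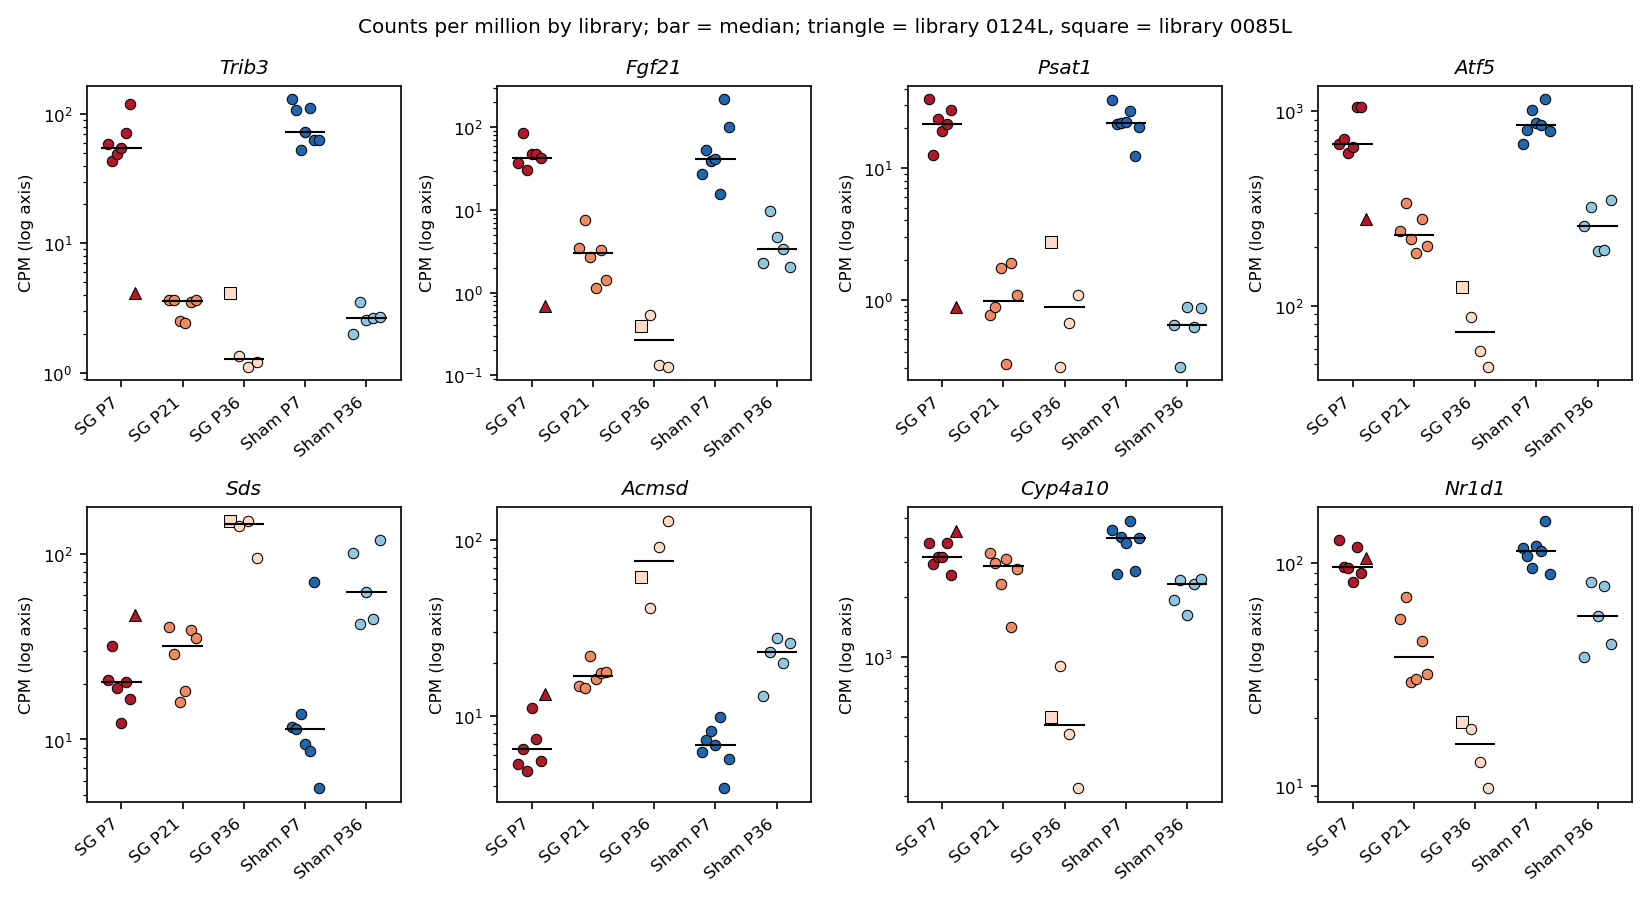
CPM (log axis) of 8 genes in each library of SG P7, SG P21, SG P36, Sham P7 and Sham P36, with the median as a bar. Library 0124L (triangle) lies at 4.17 CPM for Trib3 while the other 6 SG P7 libraries lie at 43.2 CPM or more, and for Nr1d1 it lies among them at 105 CPM.

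Promoters of the genes that rose were read for the core of the amino acid response element, TGATGNAA on either strand, the composite site that ATF4 and C/EBP partners bind. The windows ran from 250 bases before to 50 after each start site (RefSeq, build GRCm38.p6). Of 25 genes called higher among the ATF4, stress hormone, amino acid synthesis, transporter and tRNA synthetase lists, 22 had a window and 9 (40.9%) held the core, against 4.5% of all 27025 genes with a window. The sites of 6 of these 9 genes are shown as examples, with the match in capitals, 5′ to 3′ on the gene's strand. Those of Slc7a7, Yars and Iars are not shown. Of the matches shown, that of Trib3 lies just past the start site, and the others before it.
Fgf21 (chr7:45615596-45615655, minus strand): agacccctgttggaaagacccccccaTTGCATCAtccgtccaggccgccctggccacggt
Nupr1 (chr7:126625547-126625606, minus strand): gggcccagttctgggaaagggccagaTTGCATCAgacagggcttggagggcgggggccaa
Atf3 (chr1:191183410-191183469, minus strand): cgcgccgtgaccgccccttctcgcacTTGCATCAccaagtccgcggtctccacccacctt
Pycr1 (chr11:120643818-120643877, minus strand): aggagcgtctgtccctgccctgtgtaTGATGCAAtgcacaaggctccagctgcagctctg
Gars (chr6:55037941-55038000, plus strand): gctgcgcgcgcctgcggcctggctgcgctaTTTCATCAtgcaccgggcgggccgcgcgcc
Trib3 (chr2:152344028-152344057, minus strand): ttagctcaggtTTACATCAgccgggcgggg
Fgf21, Nupr1 and Atf3 carry the same 8 letters, TTGCATCA, and Pycr1 carries them on the other strand. The windows of Psat1, Atf5 and Ddit3 held no match. A match is a description of the letters and was not tested for binding. The lists gather genes known for the response to scarce amino acids, and members not called higher were not read. The share of 40.9% therefore cannot tell the genes that rose from the rest of their lists.

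Enzymes that make non-essential amino acids rose in part. Of 16 members of the asparagine, serine and proline synthesis list, 6 rose and 1 fell. Psat1, the transaminase of serine synthesis, had 0.871, 21.5 and 33.3 CPM in the lowest, median and highest SG P7 library and 2.76, 0.308, 0.664 and 1.09 CPM in SG P36. It differed by 4.04 ± 0.56 (log2, adjusted p = 6.07e-07), and the groups overlapped through 0124L alone, since the other 6 SG P7 libraries held 12.6 CPM or more. Mthfd2, a mitochondrial enzyme of the folate cycle, rose by 2.70 ± 0.46 (adjusted p = 2.52e-05), and Pycr1, the last step of proline synthesis, by 2.75 ± 0.54 (adjusted p = 0.000178). Pycr1 averaged 1.17 ± 0.555 CPM in SG P7 and 0.171 ± 0.142 CPM in SG P36.

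Asns, asparagine synthetase and a textbook ATF4 target, did not pass with all libraries. It had 5.27, 37.4 and 129 CPM in the lowest, median and highest SG P7 library, against 14.2, 5.61, 26.4 and 24.4 CPM in SG P36. The groups overlapped, and the log2 difference was 1.52 ± 0.63 (adjusted p = 0.0817). Without 0124L alone it was 1.72 and passed (adjusted p = 0.0346), and without 0124L and 0085L it was 1.63 and did not (adjusted p = 0.087). In sham mice the same gene differed by 4.69 (adjusted p = 2.78e-06), with 1.57 ± 0.896 CPM in Sham P36, but the difference between SG and sham mice missed the threshold (log2 -3.17 ± 0.86, adjusted p = 0.101). Got1, the cytosolic aspartate transaminase, was the member that fell, to 77.4 ± 24.7 CPM in SG P7, against 269 ± 40.8 CPM in SG P36 (log2 difference -1.80 ± 0.26, adjusted p = 1.43e-06).

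Cytosolic tRNA synthetases, which charge transfer RNAs with amino acids, were higher in part. Of 20, 5 rose and none fell, with a median of 0.18. Sars, for serine, rose by 0.97 ± 0.13 (adjusted p = 1.43e-07) and Gars, for glycine, by 0.83 ± 0.12 (adjusted p = 1.04e-06). Every SG P7 library lay above every SG P36 library for both, with 65.5 CPM or more against 58.7 CPM or less for Sars. Cars and Yars rose too, by 0.85 ± 0.15 (adjusted p = 3.45e-05) and 0.61 ± 0.11 (adjusted p = 8.14e-05). Cytosolic ribosomal proteins gave 0 higher and 2 lower of 54.

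Amino acid transporters changed in both directions. Of 22 tested, 4 rose and 10 fell. Slc3a2, the heavy chain that takes large neutral amino acid carriers to the membrane, averaged 124 ± 41.2 CPM in SG P7 and 42.7 ± 6.77 CPM in SG P36 (log2 difference 1.53 ± 0.17, adjusted p = 2.83e-09). Slc6a9, a glycine importer, rose by 1.24 ± 0.27 (adjusted p = 0.000664). Slc7a2, which imports arginine and lysine, fell to 182 ± 27.4 CPM in SG P7, against 400 ± 58.0 CPM in SG P36 (log2 difference -1.14 ± 0.18, adjusted p = 6.87e-06). Slc25a15, the mitochondrial ornithine carrier of the urea cycle, fell by 0.92 ± 0.17 (adjusted p = 0.000123). Without 0124L and 0085L, 6 transporters rose and 8 fell.

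Other genes among the 10 highest fold changes were in none of these amino acid lists. Lepr, the leptin receptor, had 2.11, 21.6 and 57.3 CPM in the lowest, median and highest SG P7 library, against 2.72, 2.38, 3.10 and 1.60 CPM in SG P36 (log2 difference 3.42 ± 0.52, adjusted p = 3.93e-06). The groups overlapped through 0124L alone. Gadd45a, a growth arrest gene, rose by 3.34 ± 0.41 (adjusted p = 3.64e-08), with 5.78 CPM or more in SG P7 and 5.18 CPM or less in SG P36. Rgs16, a brake on G protein signals, rose by 3.80 ± 0.90 (adjusted p = 0.00181), and by 5.56 without 0124L and 0085L. The keratin gene Krt23 rose by 3.51 ± 0.65 (adjusted p = 8.16e-05), and the cytochrome P450 gene Cyp2a22 by 3.80 ± 0.79 (adjusted p = 0.000412).

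Vmn2r3, named as a vomeronasal receptor, had the highest fold change, but its call was lost when limma-voom was used in place of edgeR. It held 53.7, 76.7, 57.9, 97.8, 147 and 145 CPM in 6 SG P7 libraries and 0 counts in library 0124L and in all 4 SG P36 libraries. The SG P7 mean of 82.5 CPM was at least 2620-fold higher than the 0.0315 CPM that 3 counts over the SG P36 group would give. SG P21 libraries reached 0.0437 CPM at most, while Sham P7 libraries held 44.3 to 236 CPM. The receptor belongs to a large family of near copies, so which copy gave the reads is uncertain.

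Genes of amino acid breakdown fell in part. Sds, serine dehydratase, had 12.2, 20.3 and 47.0 CPM in the lowest, median and highest SG P7 library, against 149, 140, 150 and 94.9 CPM in SG P36 (log2 difference -2.48 ± 0.45, adjusted p = 6.04e-05). Acmsd, which steers tryptophan carbon away from NAD, had 4.86, 6.51 and 13.4 CPM in SG P7 and 62.2, 41.3, 91.3 and 129 CPM in SG P36 (log2 difference -3.38 ± 0.31, adjusted p = 4.38e-11). All 7 SG P7 libraries lay below all 4 SG P36 libraries for both genes, 0124L included, though it was the highest of the 7.

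By residue, 4 of 13 genes of serine, threonine, glycine and alanine breakdown fell and 2 rose. Gcat, a step of threonine breakdown, fell by 0.93 ± 0.16 (adjusted p = 4.47e-05), and Sardh, which oxidizes sarcosine, by 0.88 ± 0.22 (adjusted p = 0.00312). Amt of the glycine cleavage system rose by 0.78 ± 0.13 (adjusted p = 2.62e-05). For aromatic residues and histidine, 4 of 16 fell and 1 rose, while without 0124L 7 fell and 1 rose, without 0085L 7 fell and none rose, and without both 8 fell and none rose. Haao of the kynurenine route fell by 0.79 ± 0.20 (adjusted p = 0.00304), and 5 of 15 genes from tryptophan to NAD fell with none higher, Nnmt among them at -1.56 ± 0.37 (adjusted p = 0.00162).

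Some genes of proline and branched-chain breakdown fell as well. Prodh, the first step of proline breakdown, fell to 100 ± 18.6 CPM in SG P7, against 256 ± 56.3 CPM in SG P36 (log2 difference -1.35 ± 0.23, adjusted p = 2.90e-05), and Aldh4a1, the next step, by 0.89 ± 0.15 (adjusted p = 2.43e-05). In that list 3 of 8 fell and none rose. Of 21 genes for branched chains and lysine, 4 fell and 1 rose, with Ivd of leucine breakdown at -0.63 ± 0.13 (adjusted p = 0.000503). Of all genes tested, 8.65% were called lower and 10.2% higher. The 2 groups of libraries overlapped for every member of the branched chain and lysine list. Of 18 genes of methionine, cysteine and taurine, 2 rose and 3 fell. Bhmt, which rebuilds methionine with betaine, averaged 7166 ± 2305 CPM in SG P7 and 2882 ± 691 CPM in SG P36 (log2 difference 1.31 ± 0.33, adjusted p = 0.00339), and the taurine enzyme Csad rose by 1.31 ± 0.33 (adjusted p = 0.00278).

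The urea cycle list was lower as well, with 5 of 10 members lower, none higher and a median of -0.50. Cps1, the entry step, had 942, 1619 and 2702 CPM in the lowest, median and highest SG P7 library and 2469, 4415, 5748 and 3611 CPM in SG P36 (log2 difference -1.24 ± 0.27, adjusted p = 0.000852). The groups overlapped only where the SG P7 library 0124L lay above the SG P36 library 0085L. Ass1, argininosuccinate synthase, fell by 0.89 ± 0.18 (adjusted p = 0.0004), and Gls2, liver glutaminase, by 0.86 ± 0.20 (adjusted p = 0.00128). Library 0124L was the highest SG P7 library for all 5 members that fell. Periportal hepatocyte genes, which include several of these enzymes, gave 8 lower and 1 higher of 17, with Aldh1b1 at -1.92 ± 0.29 (adjusted p = 2.26e-06) and Etnppl at -2.18 ± 0.40 (adjusted p = 7.70e-05). Pericentral genes gave 2 lower and 1 higher of 16 (1 lower and none higher without 0085L).

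Glucose production genes were mixed, with 4 lower and 1 higher of 16 (3 lower and none higher without 0085L). Ppargc1a, a coactivator of the fasting response, fell to 4.37 ± 0.958 CPM in SG P7, against 12.4 ± 2.25 CPM in SG P36 (log2 difference -1.51 ± 0.21, adjusted p = 4.81e-07). Pck1 had 763 ± 333 CPM in SG P7 and 1258 ± 814 CPM in SG P36 and did not pass (adjusted p = 0.166).

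**Figure D2:**
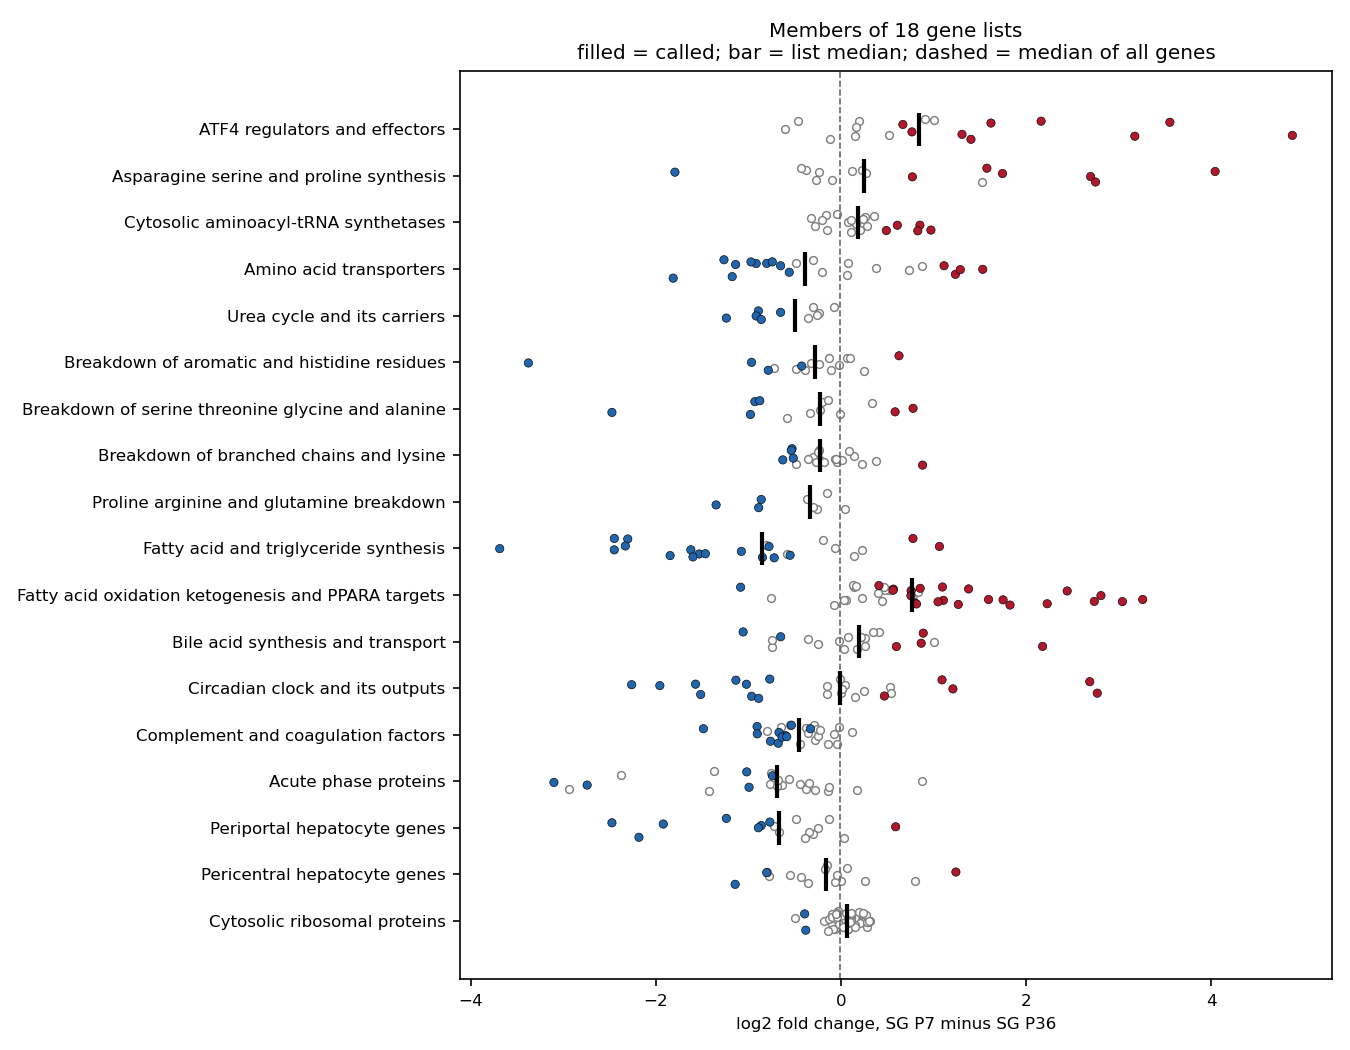
Log2 fold change, SG P7 minus SG P36, of each tested member of 18 gene lists; filled points were called (red higher, blue lower), bars are list medians and the dashed line is the median of all genes at -0.013. The list medians run from -0.85 for fatty acid and triglyceride synthesis to 0.84 for ATF4 regulators and effectors.

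Genes of fat synthesis were lower on 7% protein. Of 23 genes, 15 fell and 2 rose, with a median of -0.85. Srebf1, the transcription factor of the pathway, had 44.1, 90.5 and 165 CPM in the lowest, median and highest SG P7 library, against 240, 401, 446 and 335 CPM in SG P36 (log2 difference -1.85 ± 0.30, adjusted p = 9.61e-06). The groups did not overlap. Fasn, fatty acid synthase, averaged 322 ± 141 CPM in SG P7 and 1593 ± 863 CPM in SG P36 (log2 difference -2.31 ± 0.44, adjusted p = 0.00012). Its SG P36 libraries held 466, 1468, 2507 and 1931 CPM, so that 0085L came close to the highest SG P7 library at 460 CPM.

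Acacb, which makes the malonyl-CoA that holds back fat burning, fell by 2.45 ± 0.33 (log2, adjusted p = 3.99e-07), and Acly, which feeds cytosolic acetyl-CoA, by 2.45 ± 0.37 (adjusted p = 2.41e-06). Scd1, a desaturase, fell by 1.62 ± 0.37 (adjusted p = 0.00124), and Fads1, another, by 0.85 ± 0.14 (adjusted p = 2.67e-05). For 12 of the 15 members that fell, 0085L was the lowest SG P36 library. Without 0124L and 0085L, 16 fell and 2 rose. Cholesterol synthesis gave 1 lower and none higher of 25, and 3 lower without both.

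Genes of fat oxidation and targets of PPARA, the fatty acid sensor of liver, were higher, with 22 of 38 members up, 1 down and a median of 0.77. The member down was Ppara, the gene of the sensor itself (log2 difference -1.085, adjusted p = 0.0358). Cyp4a10 and Cyp4a14 encode omega-hydroxylases that respond to PPARA. Cyp4a10 had 2576, 3192 and 4302 CPM in the lowest, median and highest SG P7 library and 498, 899, 410 and 219 CPM in SG P36 (log2 difference 2.74 ± 0.43, adjusted p = 5.37e-06). Cyp4a14 averaged 6859 ± 1288 CPM in SG P7 and 978 ± 623 CPM in SG P36 (2.81 ± 0.50, adjusted p = 4.39e-05). Neither gene overlapped between the groups, and 0124L had the highest Cyp4a10 of all 11 libraries. The related Cyp4a31 rose by 3.04 ± 0.37 (adjusted p = 3.29e-08). Members of this P450 cluster are near copies, so that reads may be shared between them.

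Acot2, a mitochondrial acyl-CoA thioesterase, rose by 3.26 ± 0.56 (log2, adjusted p = 2.68e-05). Library 0124L was the lowest SG P7 library for 7 of the 22 members that rose, against 9 of 9 for the ATF4 list.

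Of 20 bile acid genes, 4 rose and 2 fell. Abcb11, the bile salt export pump, averaged 429 ± 86.0 CPM in SG P7 and 235 ± 29.0 CPM in SG P36 (log2 difference 0.87 ± 0.17, adjusted p = 0.000146). Nr0b2 (SHP), a repressor of bile acid synthesis, had 14.7, 28.1 and 44.1 CPM in the lowest, median and highest SG P7 library, against 7.06, 8.84, 4.60 and 5.01 CPM in SG P36 (2.18 ± 0.47, adjusted p = 0.000633). Their activator Nr1h4 (FXR) rose by 0.60 ± 0.13 (adjusted p = 0.000933), and the phospholipid exporter Abcb4 by 0.89 ± 0.20 (adjusted p = 0.000855). These 4 genes did not overlap between the groups. The 2 that fell, named after their values were seen, were the synthesis gene Akr1d1, at -1.06 ± 0.24 (adjusted p = 0.00125), and Slc27a5, which activates bile acids for conjugation, at -0.65 ± 0.15 (adjusted p = 0.00111). Cyp7a1, the rate-limiting enzyme of bile acid synthesis, had 117 ± 52.1 CPM in SG P7 and 196 ± 77.6 CPM in SG P36 and did not pass (adjusted p = 0.263).

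Clock genes changed in both directions, 5 higher and 9 lower of 24. Nr1d1 (REV-ERB alpha), a clock repressor, had 81.5, 95.6 and 127 CPM in the lowest, median and highest SG P7 library and 19.2, 18, 12.7 and 9.72 CPM in SG P36 (log2 difference 2.77 ± 0.26, adjusted p = 7.05e-11). Dbp, a PAR bZIP output factor, had 50.5, 97.8 and 124 CPM in SG P7 and 20.1, 17.7, 15.5 and 5.51 CPM in SG P36 (2.69 ± 0.37, adjusted p = 5.71e-07). Neither gene overlapped between the groups, with 0124L at 105 CPM for Nr1d1 and at 50.5 CPM, the lowest of SG P7, for Dbp.

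Among the clock genes that fell, Cry1, a repressor, averaged 5.52 ± 1.23 CPM in SG P7 and 26.5 ± 6.52 CPM in SG P36 (log2 difference -2.26 ± 0.23, adjusted p = 4.17e-10). Bmal1, the activator that Nr1d1 represses, fell by 1.52 ± 0.35 (adjusted p = 0.00154). Of 14 called genes in this list of the clock and its outputs, 11 had a promoter window. The E-box CACGTG, the site of the BMAL1 and CLOCK pair, was held by 5 (45.5%), against 8.1% of all genes with a window. The list gathers known clock and output genes, and its members that were not called were not read. This share therefore cannot tell called genes from the rest of the list. The E-boxes of Cry1 and Per1, both lower in SG P7, and 1 of the 2 of Tef, which was higher, are shown. They are in capitals and on the gene's strand. Those of Tspan4 and Lonrf3 are not shown.
Cry1 (chr10:85185082-85185141, minus strand): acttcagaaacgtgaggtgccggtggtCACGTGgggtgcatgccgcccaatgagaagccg
Per1 (chr11:69098756-69098815, plus strand): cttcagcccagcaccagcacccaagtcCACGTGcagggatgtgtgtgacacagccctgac
Tef (chr15:81802519-81802578, plus strand): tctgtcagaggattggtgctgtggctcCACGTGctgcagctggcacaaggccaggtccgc
Coordinates are those of GRCm38.p6, and the Nr1d1 and Dbp windows held no such hexamer. No clock hour of collection was found in the labels, and its part in these values was not tested.

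Some genes of secreted plasma proteins were lower. Of 27 complement and coagulation factors, 11 fell and none rose, with a median of -0.45. C9, the last complement component, had 87.4, 140 and 221 CPM in the lowest, median and highest SG P7 library and 281, 285, 460 and 584 CPM in SG P36 (log2 difference -1.49 ± 0.22, adjusted p = 3.11e-06). F7, coagulation factor VII, fell to 58.5 ± 8.09 CPM in SG P7, against 110 ± 8.87 CPM in SG P36 (-0.91 ± 0.17, adjusted p = 7.55e-05), and C4b and Cfb fell by 0.76 ± 0.20 (adjusted p = 0.00477) and 0.67 ± 0.17 (adjusted p = 0.00317). The groups did not overlap for these 4 genes. Tf, transferrin, fell to 12436 ± 1895 CPM in SG P7, against 21623 ± 4831 CPM in SG P36 (-0.80 ± 0.18, adjusted p = 0.00081). Of the 10 hepatocyte markers summed above, Tf was the only 1 called lower.

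The list of acute phase proteins and their regulators gave 5 lower and none higher of 23, and 3 lower without 0124L and 0085L. The 5 included the receptor gene Il6ra and the transcription factor gene Stat3, which do not encode acute phase proteins. Serpina3m fell by 1.02 ± 0.22 (adjusted p = 0.000641) without overlap. Orm2 and Orm3, the acid glycoproteins, were among the 10 genes with the greatest falls, at -3.10 ± 1.03 (adjusted p = 0.0282) and -2.74 ± 0.68 (adjusted p = 0.00274), and their groups overlapped. They are near copies, so that reads may be shared. Orm2 ran from 7.39 to 401 CPM in SG P7 and from 68.8 to 1933 CPM in SG P36, and its call was lost without library 0090L, 0118L or 0121L.

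The growth hormone axis gave 3 lower and 1 higher of 14. Igf1, the growth factor the liver secretes, had 360, 394 and 620 CPM in the lowest, median and highest SG P7 library, against 814, 768, 628 and 757 CPM in SG P36 (log2 difference -0.80 ± 0.17, adjusted p = 0.000366). All SG P7 libraries were below all SG P36 libraries, and 0124L was the highest of the 7. Ghr, the growth hormone receptor, fell by 0.75 ± 0.16 (adjusted p = 0.000764).

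Alas1, which starts the haem pathway, fell to 292 ± 220 CPM in SG P7, against 1633 ± 843 CPM in SG P36 (log2 difference -2.48 ± 0.38, adjusted p = 4.03e-06), and without 0124L and 0085L by 3.20 (adjusted p = 7.52e-09). Chrna4, a nicotinic receptor subunit, had 1.37, 2.84 and 4.80 CPM in the lowest, median and highest SG P7 library, against 5.66, 28, 128 and 221 CPM in SG P36. The groups did not overlap, and 0085L was the SG P36 library nearest to SG P7. Other genes of the 10 lowest fold changes follow. The noncoding Meg3 fell by 2.76 ± 0.60 (adjusted p = 0.000685), the phosphatase gene Acp3 by 3.57 ± 0.58 (adjusted p = 1.14e-05), Lrtm1 by 3.18 ± 0.51 (adjusted p = 9.03e-06) and the neurotrophin receptor gene Ntrk2 by 3.12 ± 0.60 (adjusted p = 0.000153).

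Proteostasis genes changed piecemeal. Sqstm1 (p62), a cargo receptor of autophagy, averaged 782 ± 153 CPM in SG P7 and 245 ± 137 CPM in SG P36 (log2 difference 1.67 ± 0.19, adjusted p = 8.93e-09), without overlap, while the lysosomal membrane gene Lamp1 fell by 0.50 ± 0.12 (adjusted p = 0.00256). Autophagy and lysosome genes gave 3 higher and 3 lower of 18, and 6 higher and 2 lower without 0124L and 0085L. Among 23 genes of the unfolded protein response 1 rose and 2 fell. Without 0124L 1 rose and 7 fell, without 0085L 1 rose and 1 fell, and without both 2 rose and 5 fell. In SG P7 against SG P21 none rose and 10 fell, and in Sham P7 against Sham P36 none rose and 16 fell. Edem1, which clears misfolded glycoproteins, differed by -0.92 ± 0.17 (adjusted p = 8.69e-05). Heat shock chaperones gave 3 higher and 1 lower of 15, and without 0124L and 0085L 1 higher and none lower. Hspb1 was 2.33 ± 0.49 higher (adjusted p = 0.000467). Cyp3a11, a major drug-metabolizing P450, averaged 3686 ± 1521 CPM in SG P7 and 942 ± 624 CPM in SG P36 (1.97 ± 0.42, adjusted p = 0.00058). Its groups overlapped, with SG P7 library 0122L at 769 CPM.

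Immediate early genes gave 2 higher and 4 lower of 20, and 2 lower without 0085L. Btg2, an antiproliferative gene, fell by 2.44 ± 0.36 (log2, adjusted p = 2.15e-06), and Klf10, a feeding-responsive transcription factor, rose by 2.05 ± 0.37 (adjusted p = 6.59e-05). The groups did not overlap for either.

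The 21% diet separated the changes into 2 steps. SG P7 against SG P21 gave 1561 called genes (9.70%), of which 886 (5.51%) were higher and 675 (4.20%) lower, and SG P21 against SG P36 gave 1237 (7.69%), of which 645 (4.01%) were higher and 592 (3.68%) lower. These contrasts share libraries with the main one and with each other, so their values are given side by side only. Without SG P7 library 0117L or SG P21 library 0103L the lower step gave 944 or 951 calls, and without SG P36 library 0089L the upper step gave 643. SG P21 library 0105L held 6.99 M counts, against 24.24 to 26.31 M in the rest of its group. Without it the lower step gave 1142 calls and the upper step 854. The ATF4 list gave 10 higher and none lower in the lower step, with a median of 0.83, and 2 higher and none lower in the upper step, with a median near 0. Trib3 differed by 4.12 (adjusted p = 2.50e-10) between 7% and 21% and by 0.76 (adjusted p = 0.353) between 21% and 36%. For Psat1 these were 4.06 (adjusted p = 3.90e-08) and -0.02 (adjusted p = 0.992).

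In the lists of amino acid breakdown the counts were as follows. The serine, threonine, glycine and alanine list gave 2 higher and none lower between 7% and 21%, and none higher and 5 lower between 21% and 36%, with medians of 0.07 and -0.55. The aromatic and histidine list gave 2 higher and 1 lower, then none higher and 2 lower, the branched chain and lysine list 2 higher and none lower, then 1 higher and 2 lower, and the proline, arginine and glutamine list none in either direction, then none higher and 2 lower. Sds differed by -0.31 (adjusted p = 0.686) in the lower step and by -2.16 (adjusted p = 0.00226) in the upper one, with 29.6 CPM on average in SG P21. Prodh differed by -0.01 (adjusted p = 0.988) and -1.34 (adjusted p = 0.000301). The transaminase gene Got1 differed by -0.09 (adjusted p = 0.852) and -1.70 (adjusted p = 8.47e-05). Urea cycle genes gave 1 higher and 1 lower in the lower step and none higher and 4 lower in the upper one.

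Some genes passed in both steps. Fgf21 differed by 3.61 (adjusted p = 0.00013) and 3.46 (adjusted p = 0.0186), Nr1d1 by 1.22 (adjusted p = 8.32e-05) and 1.55 (adjusted p = 0.000106), and Acmsd by -1.15 (adjusted p = 0.00661) and -2.23 (adjusted p = 4.92e-05). Others passed in 1 step. Cyp4a10 differed by 0.35 (adjusted p = 0.558) in the lower step and by 2.39 (adjusted p = 0.000245) in the upper one. Igf1 differed by -0.57 (adjusted p = 0.0109) and -0.24 (adjusted p = 0.448). Fat synthesis gave 9 lower members in the lower step and 3 in the upper one, with none higher in either. Cytosolic ribosomal proteins gave 9 higher in the lower step and 6 lower in the upper one (3 lower without 0085L).

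**Figure D3:**
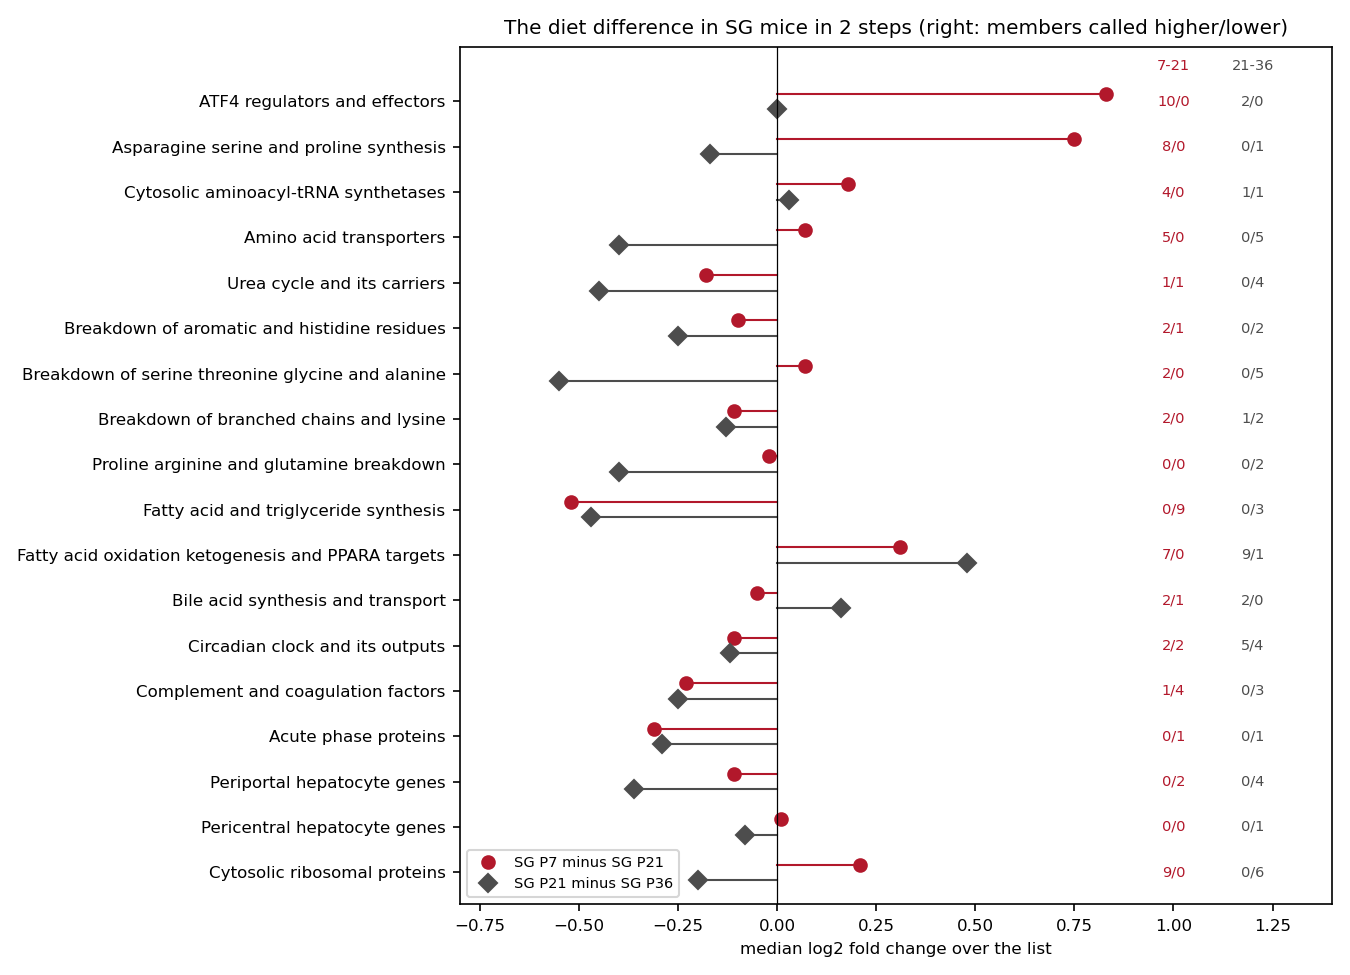
Median log2 fold change of 18 gene lists for SG P7 minus SG P21 (red circles) and SG P21 minus SG P36 (grey diamonds), with the number of members called higher and lower at the right. ATF4 regulators and effectors have a median of 0.83 in the lower step, and serine, threonine, glycine and alanine breakdown one of -0.55 in the upper step.

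After the sham operation the same 2 diets gave 2522 called genes (15.7%), 1204 (7.48%) higher and 1318 (8.19%) lower on 7% protein, in libraries shared with none of the above. Of the SG calls 43.8% were called in sham mice in the same direction, which is 52.5% of the sham calls, and 4 genes were called in opposite directions. Trib3 differed by 5.0 in sham mice (adjusted p = 1.81e-11) and Psat1 by 5.10 (adjusted p = 1.75e-09). The difference between the diet effects of SG and sham mice was itself called for 24 genes (0.149%), 11 (0.0684%) higher and 13 (0.0808%) lower in SG mice. This number moved with the method: DESeq2 called 91, limma-voom 10 and a fit of these 4 groups alone 3, while leaving out 1 library gave 6 (Sham P36 library 0082L) to 115 (SG P36 library 0087L).

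In all, 6 genes were called with and without 0124L and 0085L and passed the filters on level and symbol. Nr1d1 averaged 113 ± 21.1 CPM in Sham P7 and 59.7 ± 20.0 CPM in Sham P36, so that its difference was 1.84 ± 0.32 larger in SG mice (log2, adjusted p = 0.00402). Dbp averaged 112 ± 70.6 CPM in Sham P7 and 76.7 ± 10.5 CPM in Sham P36 (2.14 ± 0.46 larger in SG mice, adjusted p = 0.0323). The SG P7 means were 102 ± 16.1 CPM for Nr1d1 and 94.9 ± 27.2 CPM for Dbp, and the SG P36 libraries were below all Sham P36 libraries for both genes.

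Serinc2, a serine incorporator, had 22.5 to 52.3 CPM in SG P7 and 5.09 to 7.73 CPM in SG P36, against 28.7 to 41.1 CPM in Sham P7 and 11.8 to 20.0 CPM in Sham P36. Its diet difference was 1.4 ± 0.29 larger after SG (adjusted p = 0.0222). Hdac11, a deacylase, had 74.0 ± 9.61 CPM in SG P7 and 36.0 ± 3.33 CPM in SG P36, against 74.9 ± 6.06 CPM in Sham P7 and 64.7 ± 8.65 CPM in Sham P36 (0.83 ± 0.16, adjusted p = 0.00906). Flt1, a VEGF receptor of endothelium, had 9.55 ± 1.69 CPM in SG P7 and 17.9 ± 4.79 CPM in SG P36, with 12.2 ± 1.32 CPM in Sham P7 and 10.2 ± 0.733 CPM in Sham P36 (-1.17 ± 0.19, adjusted p = 0.00163). Tspyl4 differed by -1.73 ± 0.38 (adjusted p = 0.0323). The SG P36 mean was the lowest of the 4 group means for Nr1d1, Dbp, Serinc2 and Hdac11, and the highest for Flt1 and Tspyl4.

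Gulo, the last step of vitamin C synthesis and a pericentral gene, fell to 181 ± 26.1 CPM in SG P7, against 399 ± 28.6 CPM in SG P36 (log2 difference -1.14 ± 0.13, adjusted p = 1.70e-08). Its diet difference was -0.84 ± 0.19 against sham mice (adjusted p = 0.0369), and without 0124L and 0085L it missed the threshold (adjusted p = 0.0501). For Bmal1 the order was the other way: -2.12 ± 0.50 (adjusted p = 0.0556), and an adjusted p of 0.0425 without both.

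**Figure D4:**
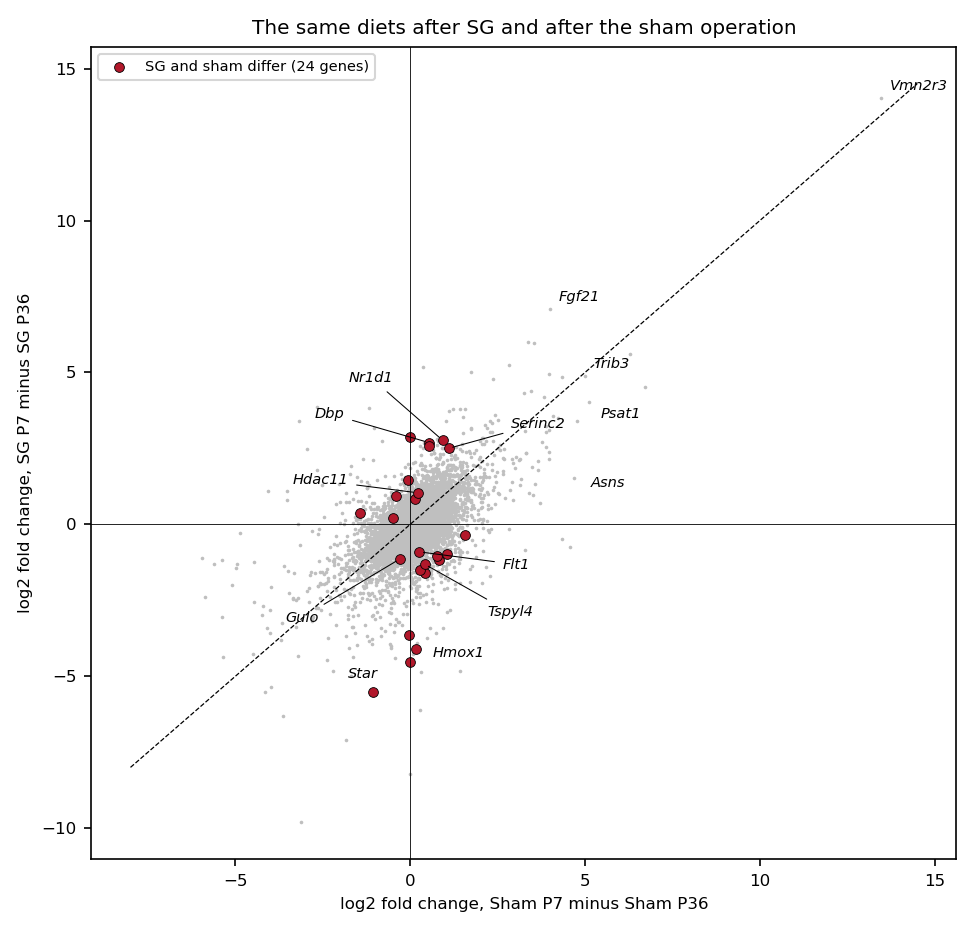
Log2 fold change between the 7% and 36% diets of each of the 16087 genes tested, in sham mice (x axis) and SG mice (y axis); red points are the 24 genes whose diet difference itself differed and the dashed line marks equal change. Nr1d1 and Dbp lie at 2.77 and 2.69 in SG mice against 0.93 and 0.54 in sham mice.

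Some calls rested on library 0085L. Without it, 2186 of the 3026 calls were kept and 840 were lost, with 2576 called in all. Leaving out another SG P36 library gave 2538 (0087L), 2071 (0089L) or 2719 (0090L) calls, so a smaller count was not particular to 0085L. Among the greatest changes lost were Star, Mt2, Hmox1, Mt1 and Clec4n. Hmox1, which breaks down haem, had 12.3 to 21.1 CPM in SG P7 and 1093, 16.4, 23.7 and 42.1 CPM in SG P36, and its log2 difference was -4.10 (adjusted p = 3.74e-07) with 0085L and -0.61 (adjusted p = 0.27) without 0085L and 0124L. Star, a cholesterol carrier of steroid-making cells, had 121 CPM in 0085L and at most 2.43 CPM in the other 10 libraries. Mt2, a metal-binding metallothionein, had 0.893, 1.70 and 57.2 CPM in the lowest, median and highest SG P7 library, against 790 CPM in 0085L and 2.69, 6.95 and 1.98 CPM in the other SG P36 libraries. Its log2 difference was -4.41 (adjusted p = 0.00409), and 1.47 (adjusted p = 0.447) without 0085L and 0124L.

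Markers of erythroid cells and of some immune cells were highest in the same library. Summed erythroid markers (7 genes) were 238 to 495 CPM in SG P7 and 446 to 1702 CPM in SG P36, with 0085L at 1702 CPM and no other SG P36 library above 551 CPM. Of these 7, 5 were called lower, and without 0124L and 0085L none. Summed Kupffer cell markers (9 genes) were 127 to 489 CPM in SG P7 and 254 to 1054 CPM in SG P36, and neutrophil markers (8 genes) were 3.48 to 93.6 CPM in SG P7 and 15.2 to 144 CPM in SG P36, with 0085L highest in both. Lymphocyte markers did not stand out there. T and NK cell markers (10 genes) were 8.2 CPM in 0085L, within the SG P7 range of 3.94 to 18.7 CPM. B cell markers (6 genes) were 15.0 CPM in 0085L, the highest of SG P36 but within the SG P7 range of 9.1 to 19.0 CPM. No marker of these lists was at 0 in all 11 libraries. Their part in the changes of 0085L was not tested.

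**Figure D5:**
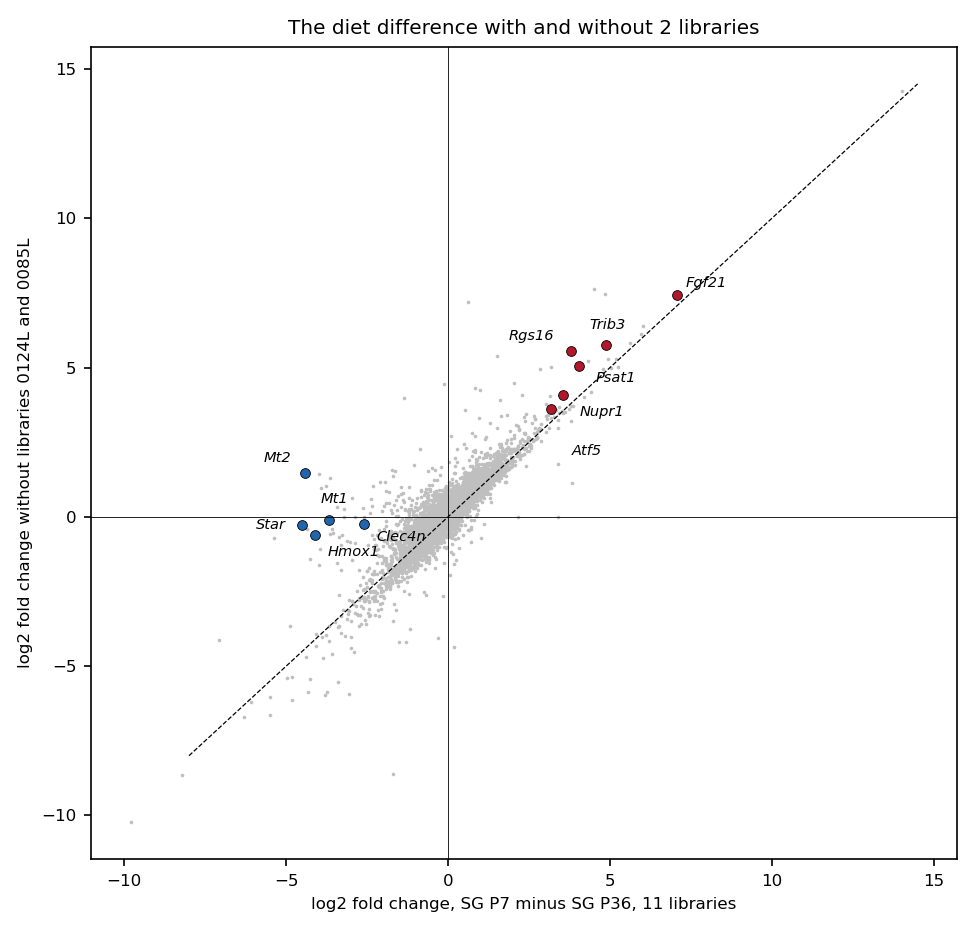
Log2 fold change, SG P7 minus SG P36, of each gene tested with all 11 libraries (x axis) and without libraries 0124L and 0085L (y axis); the dashed line marks equality. Star, Mt2, Hmox1, Mt1 and Clec4n (blue) lie between -4.52 and -2.60 on the x axis and between -0.61 and 1.47 on the y axis, while Trib3, Fgf21, Psat1, Nupr1, Atf5 and Rgs16 (red) lie above the line.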

How the data were processed

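The authors deposited expected counts per gene for 56884 Ensembl IDs, from RSEM by the name of the deposited sheet. They also deposited log2 fold changes of SG against sham, used here only for gene symbols. The submitters' processing notes name GRCm39, R 4.4.1, edgeR and limma, and the sources used here do not give the aligner or filters. Libraries were stranded, poly(A)-selected and paired-end, per the labels' protocols. Of 62 labelled samples, 57 had a column.

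Expected counts were rounded and tested in R 4.3.3 with edgeR 4.0.16. filterByExpr kept 16087 genes, TMM scaled the libraries, and 9 groups (56 libraries, 47 residual degrees of freedom) were fitted together by glmQLFit (biological coefficient of variation 28.2%). P-values were adjusted over all genes tested, with 0.05 as threshold. The SE of a log2 difference was back-calculated as its absolute value divided by the square root of the quasi-likelihood F statistic. CPM used TMM library sizes, and a prior count of 2 was added before log2 CPM. Libraries are taken as separate animals, and p-values measure the spread between them. Near-identical genes may share reads.

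Groups, gene lists and named genes were chosen with earlier results of these data known. Named were the 10 highest and 10 lowest fold changes called with and without 0124L and 0085L (mean log2 CPM of 1 or more, no predicted, pseudogene or immune receptor symbols), up to 4 members per described list by adjusted p, a fixed set, the genes whose SG and sham differences differed in both fits, and the 6 largest calls lost without 0085L. The text gives some of these, and a few are not reported here. Atf3, Ddit3, Slc7a7, Iars, Per1, Tef, Tspan4 and Lonrf3 are named for their promoters only. Cyp4a14, Ppara, Akr1d1 and Slc27a5 were named after values were seen. Il6ra and Stat3 are named only to describe their list.

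Alternatives were RLE scaling, no scaling factor, no filter, DESeq2 1.42.0, limma-voom (limma 3.58.1), only the groups compared, and libraries left out. All 27 pairs of libraries compared within groups differed by more than sampling noise (chi-square per degree of freedom of 35.55 or more). The steps were tested on simulated counts. Shares of counts were compared by exact permutation, where 7 against 4 libraries allow p = 0.003 at the lowest.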

Additional observations from a re-analysis of the deposited data

Results flagged for a closer look

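Within SG P7 and SG P36, 22 highest or lowest libraries of named genes lay apart on the log2 CPM scale (Dixon's ratio above 0.568 for 7 libraries and above 0.829 for 4), out of 196 groups of libraries. For groups that are independent and picked without sight of the values, chance would put about 1 in 20 past this limit. The named genes were chosen with results known, some because their call rested on 1 library, and genes of one response are not independent. The 22 therefore cannot be compared with that rate.

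Library 0124L was apart in 11 of them, and the genes are mostly those of amino acid shortage. It was the lowest SG P7 library for Vmn2r3 (0 CPM), Fgf21 (0.688 CPM), Trib3 (4.17 CPM), Psat1 (0.871 CPM), Nupr1 (1.56 CPM), Atf5 (279 CPM), Gdf15 (1.01 CPM), Mthfd2 (0.642 CPM) and Pycr1 (0.138 CPM). It was the highest for Igf1 (620 CPM) and Etnppl (250 CPM). In each case it lay on the side of SG P36.

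Library 0085L was the highest SG P36 library for Trib3 (4.12 CPM), Star (121 CPM) and Clec4n (58.1 CPM). Library 0087L was the highest SG P36 library for Cyp2a22 (14.4 CPM) and the lowest for Gadd45a (2.69 CPM). Library 0090L was the lowest for Sds (94.9 CPM) and the highest for Cars (25.9 CPM). Among SG P7 libraries, 0122L was the lowest for Cyp3a11 (769 CPM) and the highest for Mt1 (76.1 CPM) and Mt2 (57.2 CPM), and 0120L was the lowest for Hspb1 (18 CPM).

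The diet difference itself differed between SG and sham mice, by edgeR's test of the difference, for Nr1d1 (log2 1.84), Dbp (2.14), Serinc2 (1.4), Hdac11 (0.83), Flt1 (-1.17), Tspyl4 (-1.73), Gulo (-0.84), Star (-4.53) and Hmox1 (-4.26). The last 2 rest on library 0085L: without it and 0124L they were -0.29 (adjusted p = 0.924) and -0.78 (adjusted p = 0.729).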

How the results depend on the processing

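The count of genes called in SG P7 against SG P36 stayed within 1.5 times of 3026 under RLE scaling, no scaling factor, no filter, DESeq2, limma-voom, the compared groups alone and without 0124L and 0085L (2173 to 3236), and was 2071 to 3483 when 1 library was left out. Genes called higher were 1070 (without 0089L) to 1817 (without 0124L). Of 98 named genes, 94 were called, and 87 of these kept direction and call under every alternative run. The 24 genes that differed between SG and sham became 13 with no filter, 91 by DESeq2, 10 by limma-voom, 3 with the compared groups alone and 15 without both libraries, and 6 to 115 with 1 library left out. They were 15 without SG P7 0119L or 0124L and 12 without 0117L, 115 without SG P36 0087L, 8, 10, 9 and 72 without Sham P7 0110L, 0111L, 0114L and 0115L, and 8, 12, 13 and 6 without Sham P36 0077L, 0079L, 0080L and 0082L. For SG P7 against SG P21, 1021 genes were called with no filter and 944 (without 0117L) to 1637 (without 0124L) with 1 library left out, with 951 without 0103L. For SG P21 against SG P36 it was 643 (without 0089L) to 1378 (without 0106L). Mt2 turned to 1.47 without both and ran from -7.00 to 1.29 with 1 library left out. The mitochondrial share differed by 0.52 points, and by -0.11 without both. The share of the 10 most abundant genes was -0.40 points apart (SG P7 minus SG P36), 0.50 points with 50 genes, and -1.08 to 0.45 with 1 library left out. The cause was not tested. No paired analysis was possible because library names are unique to each sample. With 4 SG P36 libraries, 1 library weighs heavily, and low counts limit genes near 1 CPM.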
